A study of Danio rerio with 2 samples.

Results

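Unpigmented neural crest cells carrying foxd3 transcripts made up 162 of 1347 cells in a single-cell RNA-seq series on zebrafish embryos, 23 of 348 cells in the ErbBi library and 139 of 999 in the untreated library. A cell belonged to the set when it held at least 2 unique molecular identifiers (UMIs, each counting 1 captured transcript) of foxd3 and little RNA of the neighbouring lineages. Members were thus chosen by measured foxd3, melanin gene, gch2 and twist1a counts. The limits were 1% of its UMIs in the melanin genes dct, pmela, tyrp1a and tyrp1b summed, 2% in gch2 and 0.05% in twist1a. The levels of these genes therefore describe how the cells were chosen.

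Both groups of embryos were AB (WT) zebrafish at 24 hours post fertilisation that carried a mitfa:GFP and a crestin:mCherry reporter, and double-positive cells were sorted. One group was labelled ErbBi, taken to mean that ErbB receptors were inhibited, though its compound, dose and duration are not given in the sources used here. The other group was untreated. Polyadenylated RNA of each treatment was profiled in 1 droplet library (10x Chromium 3' v2). Library and treatment therefore cannot be told apart, and no test between treatments was possible.

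Neural crest cells arise at the border of the neural plate, migrate through the embryo and form pigment cells, peripheral neurons, glia and, in the head, skeletal tissue. foxd3 encodes a forkhead transcription factor of early and premigratory crest that persists in glial precursors and is lost as pigment cells differentiate. ErbB receptors carry neuregulin signals that crest-derived glial precursors need to migrate along nerves, and in zebrafish the pigment progenitors that settle at the dorsal root ganglia also need them.

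The 2 libraries differed in depth. They held 1113172 UMIs in the ErbBi library and 7242348 in the untreated library. Members of the set had 1594 to 4724 UMIs each in the ErbBi library, with a median of 2712, against 2281 to 25680 with a median of 8318 in the untreated library. The summed set rested on 62809 UMIs in ErbBi and 1287771 in untreated. Levels are given as CPM (UMIs of a gene scaled by all UMIs of the summed set) with exact Poisson 95% intervals, which cover counting error only and treat UMIs as independent although they come from few cells. The libraries shared 6 cell barcodes, of which 0 belonged to members.

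The share of cells in the set differed between the libraries and changed with depth. It was 6.61% in the ErbBi library (exact binomial, Clopper-Pearson, 95% limits 4.24% to 9.75%) and 13.9% in the untreated library (11.8% to 16.2%). Among unpigmented cells alone, 23 of 118 ErbBi cells (19.5%, limits 12.8% to 27.8%) and 139 of 385 untreated cells (36.1%, 31.3% to 41.1%) had at least 2 foxd3 UMIs. When each cell was first thinned to 1900 UMIs, which left out cells with fewer, the shares became 4.64% in ErbBi (13 of 280 cells) and 3.81% in untreated (36 of 946). In this thinning the untreated library no longer held the larger share. It left few members, and the part of depth in the difference was not tested.

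foxd3 itself, the gene that chose the cells, was counted at 2 to 7 UMIs per ErbBi member with a median of 3, and at 2 to 15 per untreated member with a median of 4. Per 10000 UMIs this was 4.23 to 23.1 (median 11.1) in ErbBi and 0.779 to 30.7 (median 4.94) in untreated. A fixed minimum of 2 UMIs therefore picked cells with a higher foxd3 share in the shallower library, and the summed level was 1146 CPM in ErbBi against 530 CPM in untreated. Just outside the limit, 25 ErbBi and 52 untreated unpigmented cells held 1 foxd3 UMI. Of all cells with at least 2 foxd3 UMIs, 33 in ErbBi and 207 in untreated, the rest passed a limit on another gene. Members reached 0.553% of UMIs in the melanin genes in ErbBi and 0.861% in untreated, while the nearest such cells outside stood at 1.70% in ErbBi and 1.11% in untreated. For gch2 the highest member values were 1.295% in ErbBi and 1.91% in untreated, with the nearest outside at 4.68% in ErbBi and 2.28% in untreated. For twist1a they were 0.0359% in ErbBi and 0.0361% in untreated, with the nearest outside at 0.0528% in ErbBi and 0.0728% in untreated.

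**Figure D1:**
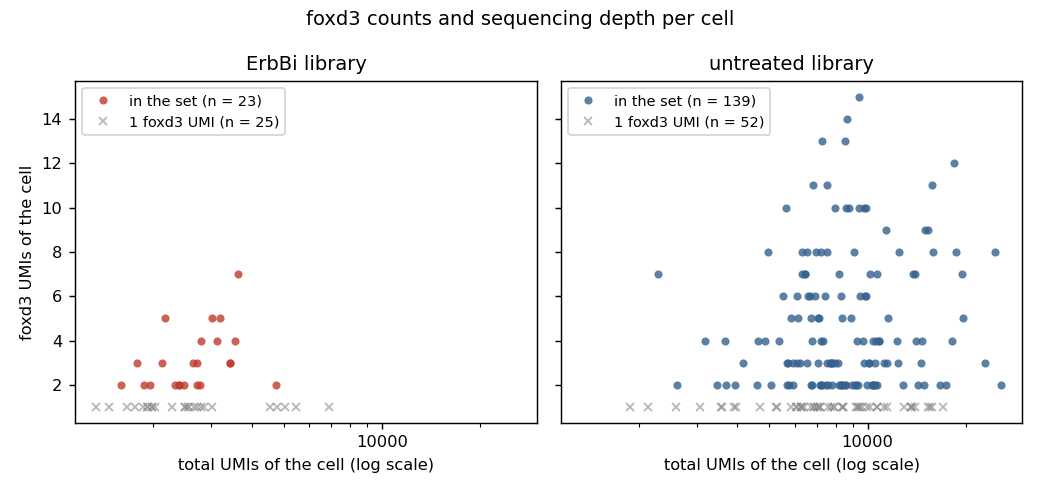
foxd3 UMIs of each cell against its total UMIs (log axis) in the ErbBi library (left) and the untreated library (right). Filled points are members of the set (23 and 139 cells) and crosses are unpigmented cells with 1 foxd3 UMI (25 and 52 cells). ErbBi members lie between 1594 and 4724 UMIs, and untreated members reach 25680.

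The markers given for this population were checked next, beside the cells above the twist1a limit. sox10, a crest and glial transcription factor, stood at 509 CPM in ErbBi members (15 of 23 cells with a UMI) and 402 CPM in untreated members (133 of 139 cells). The twist1a cells held 109 CPM in ErbBi and 78.5 CPM in untreated. With every cell thinned to 1500 UMIs, a depth chosen after seeing the data because it keeps all members, sox10 was found in 60.9% of ErbBi members and 55.4% of untreated members, against 19.1% and 8.33% of twist1a cells in the same libraries. The other unpigmented cells held it in 37.4% of cells in ErbBi and 38.0% in untreated. The set therefore carried sox10 in both libraries, at levels above the twist1a cells, but sox10 was not past the fold described below against the other unpigmented cells in either library.

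crestin, a transcript found in zebrafish crest, was sparse in the ErbBi members. ErbBi members held 5 crestin UMIs in 4 of 23 cells (79.6 CPM, 25.8 to 186) and untreated members 422 UMIs in 108 of 139 cells (328 CPM, 297 to 361). At 1500 UMIs the share of members with crestin was 13.04% in ErbBi (2.78% to 33.6%) and 30.2% in untreated (22.7% to 38.6%), and these limits overlap. The other unpigmented cells had crestin in 18.7% of cells in ErbBi and 34.7% in untreated, and the twist1a cells in 16.3% in ErbBi and 8.33% in untreated. In the ErbBi library the members' share thus did not stand above that of either other set, and the share of crestin UMIs that came from free RNA was not tested.

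The remaining marker, a homeobox gene listed as ALX4 (ENSDARG00000088332), was uncommon. It was detected in 4 of 23 ErbBi members (143 CPM, 65.5 to 272) and 33 of 139 untreated members (129 CPM, 110 to 150). The other unpigmented cells held 37.2 CPM in ErbBi and 84.3 CPM in untreated, so ALX4 marked a minority of members and was also present outside them. Of other crest genes, the AP-2 factor tfap2a stood at 223 CPM in ErbBi members and 212 CPM in untreated members, and the endothelin receptor gene ednrab at 1130 CPM in ErbBi and 1067 CPM in untreated. In twist1a cells tfap2a stood at 175 CPM in ErbBi and 147 CPM in untreated, and ednrab at 969 CPM in ErbBi and 843 CPM in untreated, so these genes were not particular to the set. Of the markers that did not choose the cells, sox10 thus stood above the twist1a cells in both libraries by share of cells. crestin and ALX4 did so in the untreated library. None of these markers was past the fold against the other unpigmented cells where it was measured. In the ErbBi library ALX4 had fewer than the minimum of 20 UMIs over the set and the other unpigmented cells. It was therefore not measured there.

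The reporter transcripts were sparse in the ErbBi members. EGFP, the mitfa reporter, had 11 UMIs in 8 of 23 ErbBi cells (175 CPM, 87.4 to 313), against 1309 UMIs in 107 of 139 untreated cells (1016 CPM, 962 to 1073). mCherry, the crestin reporter, was found in 2 of 23 ErbBi cells and 66 of 139 untreated cells, and at 1500 UMIs in 8.70% of ErbBi members (1.07% to 28.0%) and 16.5% of untreated members (10.8% to 23.8%), limits that overlap. At 1500 UMIs the share of members with EGFP was 26.1% in ErbBi (10.2% to 48.4%) and 37.4% in untreated (29.4% to 46.0%), against 21.3% and 11.9% of twist1a cells. In the ErbBi library the members' limits covered the share of twist1a cells and also the 35.2% of other unpigmented cells with EGFP. The shares thus do not place the ErbBi members nearer to either set.

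ErbBi was compared with untreated within the set over 5368 genes that had at least 20 UMIs in the 2 sums together. A gene was counted as past the fold when its ratio of CPM was at least 2 in either direction and the 95% interval (exact conditional binomial) lay beyond 1.5-fold. By this rule 52 genes were higher in ErbBi members (0.969% of genes measured) and 15 were lower (0.279%). The median log2 ratio of all genes measured was 0.13. A 0 ErbBi sum entered it as 3 counts, so genes with 0 ErbBi and few untreated UMIs counted as higher. The shallow ErbBi sum limited the lower calls: a gene with 0 ErbBi UMIs needed 124 untreated UMIs (96.3 CPM) to be called lower, which 1362 genes had, while a higher call could rest on 5 ErbBi UMIs.

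The genes lower in ErbBi members included a PAX7 gene, PAX3 and crestin. Symbols in capitals are as the name table gives them. PAX7 (ENSDARG00000100398), a transcription factor of early crest and of xanthophore precursors, had 2 UMIs in 2 of 23 ErbBi cells (31.8 CPM, 3.86 to 115) and 320 UMIs in 64 of 139 untreated cells (248 CPM, 222 to 277), a ratio of 0.128 (0.0155 to 0.467). The same ratio was 0.911 in the other unpigmented cells, 0.747 in melanin-rich cells, 1.58 in gch2-rich cells and 1.17 in twist1a cells. At 1500 UMIs per cell, 8.70% of ErbBi members (1.07% to 28.0%) and 23.7% of untreated members (16.9% to 31.7%) held PAX7, against 4.96% and 4.76% of twist1a cells, and the limits of the members overlap. With the rule applied after thinning, PAX7 had 1 UMI in ErbBi members and 48 in untreated members, and its ratio of 0.167 (0.00415 to 0.977) was no longer past the fold. The second gene listed as PAX7 (ENSDARG00000070818) had 1 UMI in ErbBi members against 125 in untreated members, a ratio of 0.164 whose interval (0.00412 to 0.931) did not clear 1.5-fold.

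PAX3 (ENSDARG00000010192), a related factor of the early crest, was not counted in the ErbBi members. It had 0 UMIs in 23 ErbBi cells and 150 UMIs in 58 of 139 untreated cells (116 CPM), which made it at least 2.44-fold lower when the ErbBi sum was set to a floor of 3 counts. In the other unpigmented cells PAX3 stood at 123 CPM in ErbBi and 101 CPM in untreated. At 1500 UMIs it was found in 0 of 23 ErbBi members, which allows a share of cells with a UMI of up to 13.04% (3 counts over 23 cells), and in 11.5% of untreated members (6.72% to 18.0%). At that depth these ranges overlap. Cells of a library are not replicates, so the ranges do not test the treatment. When cells with 1 foxd3 UMI were let in, PAX3 had 7 ErbBi UMIs and a ratio of 0.459 (0.182 to 0.963), which was not past the fold.

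Further lower genes belonged to the reporters, the pigment lineages and general cell functions. EGFP was 5.804-fold lower in ErbBi members (ratio 0.172, 0.0858 to 0.309), compared with a ratio of 0.717 over all other cells of the libraries, and crestin was 4.12-fold lower (ratio 0.243, 0.0785 to 0.571), compared with 0.580 over all other cells. EGFP was not past the fold once cells with 1 foxd3 UMI were let in (ratio 0.817, 0.674 to 0.982) or when the rule followed thinning (0.678, 0.241 to 1.55), and crestin was not past it under either of these or with 3 or more foxd3 UMIs (0.466, 0.236 and 0.333). AKR1B1 (ENSDARG00000006215), listed with xanthoblasts, stood at 637 CPM in ErbBi members and 1787 CPM in untreated members, a ratio of 0.356 against 0.437 elsewhere. slc2a11b, a sugar transporter gene required for xanthophores in medaka, had 0 UMIs in ErbBi against 157 in untreated. tmed7 (1 against 230 UMIs) and mrpl33 (1 against 191), which encode a secretory-pathway and a mitochondrial ribosomal protein, had ratios of 0.0891 and 0.107. The nuclear import gene kpna2 ran opposite to the pooled other cells, with a ratio of 0.218 in the set and 2.26 in all other cells. Those other cells held 147 twist1a and 64 melanin-rich cells in ErbBi, against 86 and 404 in untreated. The part of this mix in the ratios over all other cells was not tested. Of the 12 leading lower genes, 3 were past the fold in the same direction in all other cells and 1, kpna2, in the opposite direction. The share of all measured genes past the fold in all other cells was not counted.

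Trunk hox genes, which encode position along the body axis, were also scarce in ErbBi members. Genes of paralogue groups 5 to 8 summed to 3 UMIs in ErbBi members (47.8 CPM, 9.85 to 140) and 445 UMIs in untreated members (346 CPM, 314 to 379), a pooled ratio of 0.138 (0.0284 to 0.407). Groups 9 to 13 summed to 2 UMIs in ErbBi (31.8 CPM) and 249 UMIs in untreated (193 CPM), a ratio of 0.165 (0.0198 to 0.601). Groups 1 to 4, which mark hindbrain levels, stood level at 318 CPM in ErbBi (195 to 492) and 331 CPM in untreated (300 to 364). Their pooled ratio was 0.963 (0.582 to 1.51). In ErbBi members the anterior groups thus outnumbered the posterior ones, while untreated members held both.

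Among single hox genes, HOXB8 (ENSDARG00000056027) was the one past the fold, of 5 measured in groups 5 to 8. It had 0 UMIs in ErbBi members and 221 UMIs in 62 of 139 untreated members, and was at least 3.59-fold lower. With the rule applied after thinning it had 0 UMIs in ErbBi and 36 in untreated and was not past the fold. hoxb7a had 1 UMI in ErbBi against 104 in untreated. Of 6 genes measured in groups 1 to 4, 0 were past the fold. hoxb3a stood at 111 CPM in ErbBi members and 79.2 CPM in untreated members, while hoxc3a had 1 UMI in ErbBi against 122 in untreated. The direction was shared by the other unpigmented cells, where groups 5 to 8 stood at 138 CPM in ErbBi and 304 CPM in untreated, and groups 9 to 13 at 152 CPM in ErbBi and 308 CPM in untreated. HOXB8 had a ratio of 0.314 (0.181 to 0.511) over all cells outside the set. The axial level from which the sorted cells came was not measured apart from these genes.

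**Figure D2:**
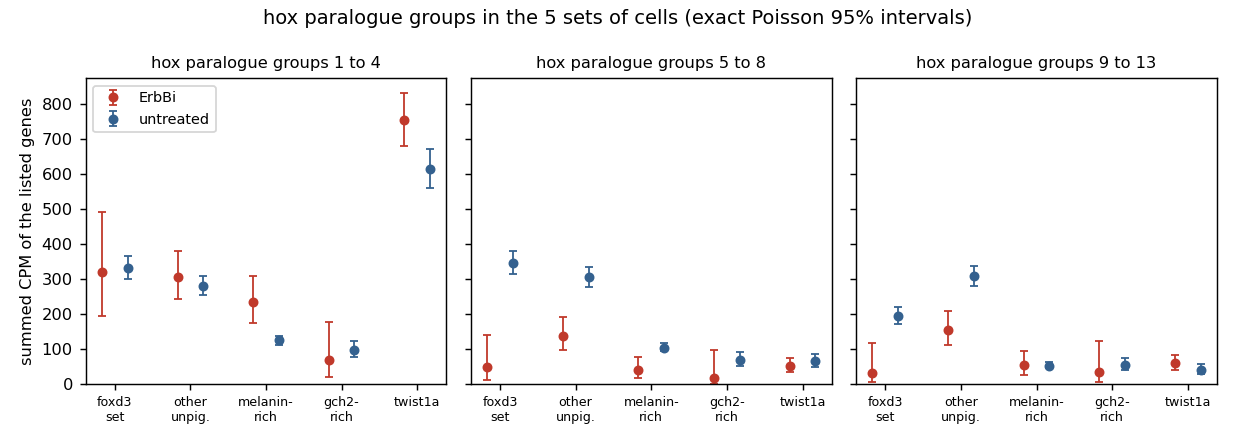
Summed CPM of the listed hox genes by paralogue group (panels) in the foxd3 set, other unpigmented, melanin-rich, gch2-rich and twist1a cells, with the ErbBi library left of the untreated one and exact Poisson 95% intervals. In the foxd3 set groups 1 to 4 stood at 318 CPM in ErbBi and 331 CPM in untreated, groups 5 to 8 at 47.8 CPM in ErbBi and 346 CPM in untreated, and groups 9 to 13 at 31.8 CPM in ErbBi and 193 CPM in untreated.

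The genes higher in ErbBi members mostly rested on few UMIs and were also higher in the pooled remaining cells of the ErbBi library. The mix of sets in those cells differed between the libraries. hey1, a transcriptional repressor induced by Notch signalling, had 10 UMIs in 6 of 23 ErbBi cells (159 CPM, 76.3 to 293) and 12 UMIs in 11 of 139 untreated cells (9.32 CPM, 4.81 to 16.3). Its ratio was 17.1 (6.61 to 43.2) in the set and 3.401 (1.79 to 6.30) in all other cells. Without the top cell of each library it had 7 UMIs in ErbBi and 10 in untreated, under the minimum of 20, at a ratio of 14.8. At 1500 UMIs 21.7% of ErbBi members (7.46% to 43.7%) and 2.16% of untreated members (0.447% to 6.18%) held hey1. These limits do not test the treatment, since hey1 was picked by its ratio in the same cells. Cells of a library are also not replicates. sfrp5, a secreted antagonist of Wnt signals, had 8 UMIs in ErbBi (127 CPM) and 18 in untreated (14.0 CPM), a ratio of 9.11 (3.43 to 22.03) in the set and 3.56 elsewhere.

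DLX2 (ENSDARG00000079964), a homeobox gene of cranial crest and its mesenchyme, was higher in ErbBi in each of the 5 sets of cells, least in the twist1a cells (ratio 1.33). It had 21 UMIs in 14 of 23 ErbBi cells (334 CPM, 207 to 511) and 74 UMIs in 40 of 139 untreated cells (57.5 CPM, 45.1 to 72.1), a ratio of 5.82 (3.403 to 9.55). The ratio over all other cells was 5.09. At 1500 UMIs DLX2 was found in 34.8% of ErbBi members (16.4% to 57.3%) and 5.76% of untreated members (2.52% to 11.03%). In the twist1a cells of the same libraries, where DLX2 is abundant, the shares were 47.5% in ErbBi and 41.7% in untreated. The ErbBi library held 147 twist1a cells of 348 and the untreated library 86 of 999, and the part of free RNA from them in the DLX2 level of the set was not tested.

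Other higher genes included the RNA-decay factor ZFP36L1 (ENSDARG00000016154) at 334 CPM in ErbBi members and 29.5 CPM in untreated members, a ratio of 11.3 against 9.0 elsewhere. The ETS factor ets1, which takes part in crest delamination, stood at 143 CPM in ErbBi and 25.6 CPM in untreated, with a ratio of 5.59 (2.35 to 11.9) in the set and 5.26 elsewhere. gfra3, a receptor subunit of the GDNF family, had a ratio of 6.15 and 5.67 elsewhere, and FBN3 (ENSDARG00000098237), a fibrillin gene, 6.47 and 8.89 elsewhere. Of the 12 leading higher genes, 10 were past the fold in the same direction in all other cells, as were 31 of all 52. kmt2e, with ratios of 6.41 in the set and 1.62 elsewhere, and oca2, with 5.13 and 0.968, were not. The share of all measured genes past the fold in all other cells was not counted, so these counts have no background beside them.

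**Figure D3:**
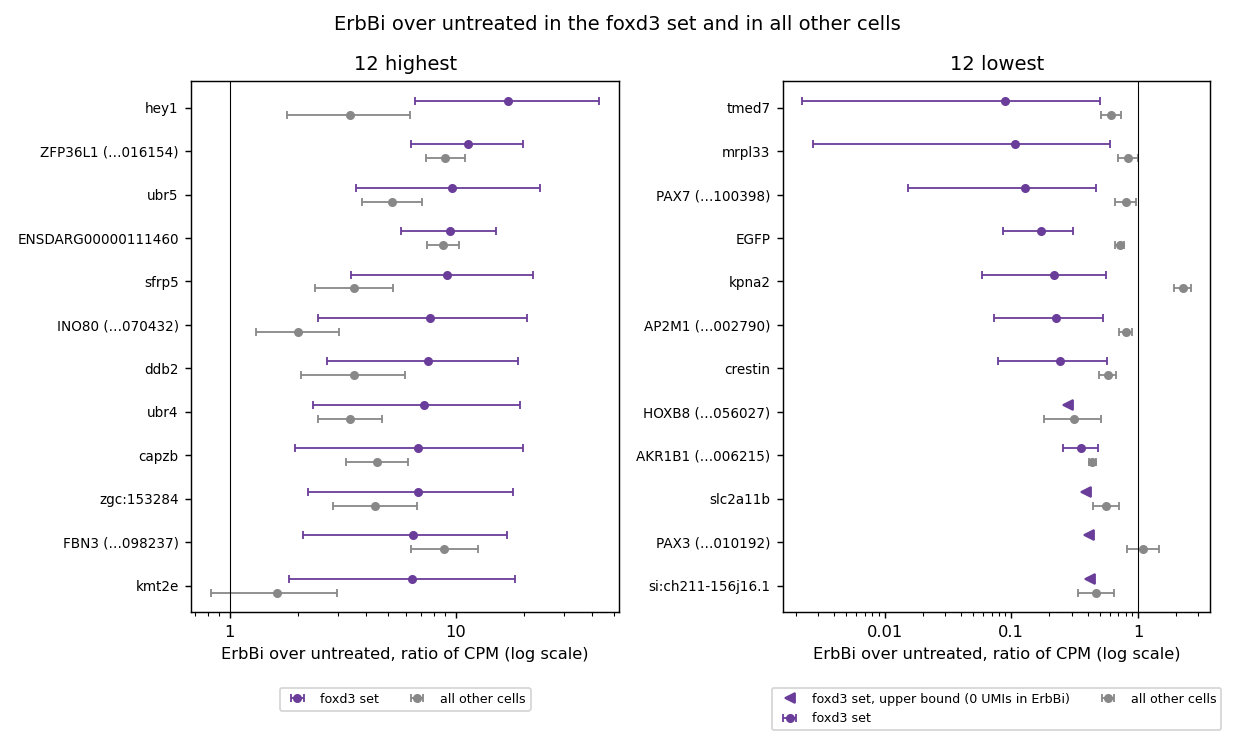
Ratio of CPM, ErbBi over untreated (log axes), for the 12 highest and 12 lowest ranked genes past the fold, in the foxd3 set (purple) and in all other cells (grey), with 95% intervals. Triangles are upper bounds for genes with 0 ErbBi UMIs. PAX7 stands at 0.128 in the set and 0.802 elsewhere, and kpna2 at 0.218 and 2.26.

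By lineage list, most neural crest genes were not past the fold between treatments. Of 19 neural crest genes measured, 2 were higher (foxd3, which chose the cells, and ets1) and 3 were lower (crestin, PAX3 and PAX7), and their summed level was 5365 CPM in ErbBi members and 4753 CPM in untreated members. foxd3, which the rule used, made up 1146 CPM of that sum in ErbBi and 530 CPM in untreated. The median log2 ratio of the list was 0.16, beside 0.13 over all genes. Both medians include genes with 0 ErbBi UMIs, set to 3 counts. Of 8 xanthoblast genes measured, 2 were lower in ErbBi (PAX7 and AKR1B1) and 0 were higher, with a median of -0.97. That list summed to 3343 CPM in ErbBi and 6368 CPM in untreated (pooled ratio 0.525, 0.456 to 0.602). gch2, which the rule limits, made up 2388 CPM of that sum in ErbBi and 3683 CPM in untreated.

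Of 10 melanoblast genes, 1 (oca2) was higher in ErbBi, and the list summed to 4044 CPM in ErbBi and 4160 CPM in untreated. That list includes dct, pmela, tyrp1a and tyrp1b, which the rule limits, so its level in part describes how the cells were chosen. Those 4 genes together had a median of 0.295% of a member's UMIs in ErbBi and 0.352% in untreated. Of 9 pigment progenitor genes and 7 iridoblast genes, 0 were past the fold in either direction. The first list summed to 637 CPM in ErbBi and 718 CPM in untreated, the second to 2165 CPM in ErbBi and 1973 CPM in untreated. MITF (ENSDARG00000003732), the regulator of melanophore fate, stood at 271 CPM in ErbBi members and 335 CPM in untreated members. Of 3 mesenchyme genes measured, DLX2 was higher, and the list summed to 605 CPM in ErbBi and 196 CPM in untreated (pooled ratio 3.09, 2.14 to 4.36). The mesenchyme list includes twist1a, which the rule limits.

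ErbB receptors and ligands were barely detected. erbb3b, the receptor through which neuregulin acts on crest and glia, was found in 0 of 23 ErbBi members and in 20 of 139 untreated members (22 UMIs, 17.1 CPM). At 1500 UMIs 2.88% of untreated members held it, so 23 shallow cells could not show a difference. All 8 listed receptor and ligand genes together had 1 UMI in ErbBi members (15.9 CPM) and 53 in untreated members (41.2 CPM). The Schwann cell precursor and glia list summed to 1258 CPM in ErbBi and 1208 CPM in untreated, of which FABP7 (ENSDARG00000007697), a lipid-binding protein of glia and neural progenitors, gave 1226 CPM in ErbBi and 1146 CPM in untreated. Of the 2 genes of that list measured, 0 were past the fold.

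Cell cycle genes stood level, at a summed 8375 CPM in ErbBi members and 8961 CPM in untreated members. Of 20 measured, 1 (the replication factor mcm3, ratio 2.61, 1.69 to 3.88) was higher in ErbBi. Immediate early genes, which respond to handling of tissue among other stimuli, summed to 1178 CPM in ErbBi and 842 CPM in untreated with 0 of 7 past the fold. Of 10 cadherin and guidance genes and 7 Notch and Wnt target genes measured, 0 were past the fold. Those lists summed to 669 and 366 CPM in ErbBi members and 545 and 337 CPM in untreated members. Of 7 neuron genes and 4 neural tube genes measured, 0 were past the fold.

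The set was then compared with the 95 ErbBi and 246 untreated other unpigmented cells, which met the same limits but held 0 or 1 foxd3 UMIs. Members were deeper than these cells. Median UMIs were 2712 against 2412 in ErbBi and 8318 against 5701 in untreated. In the ErbBi library 11 genes were higher in the set (0.49% of 2247 measured) and 27 lower (1.2%). In the untreated library 68 were higher (0.911% of 7462) and 144 lower (1.93%). The deeper library measured more genes, so the counts cannot be compared. In both libraries together 4 genes were higher (0.179% of 2239) and 9 lower (0.402%), and of these 1 and 7 had most of their UMIs in a single cell. The remaining 3 higher genes were foxd3, which the rule used, PRDM12 and pmp22a. Since the cells were divided on a measured gene, these values describe them.

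PRDM12 (ENSDARG00000007430), a regulator of sensory neuron fate in vertebrates, was the gene other than foxd3 that most set these cells apart in both libraries. It stood at 175 CPM in the ErbBi set (87.4 to 313) and 44.6 CPM in the other unpigmented ErbBi cells, a ratio of 3.92 (1.57 to 9.72). In the untreated library it was at 154 CPM in the set (133 to 177) and 41.5 CPM in the others, a ratio of 3.71 (2.77 to 5.01). The melanin-rich, gch2-rich and twist1a cells held between 12.7 and 31.2 CPM in the 2 libraries. At 1500 UMIs PRDM12 was found in 26.1% of ErbBi members (10.2% to 48.4%) and 17.3% of untreated members (11.4% to 24.6%), against 4.96% and 2.38% of the twist1a cells. The ErbBi ratio rested on 11 UMIs in the set and 12 in the other cells, and it was not past the fold against cells with 0 foxd3 UMIs (2.89, 1.16 to 7.15), at 2800 UMIs per cell (4.83, 0.818 to 33.0), or without comparison cells that held other cell types' genes (2.77, 1.07 to 7.28).

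pmp22a, related to a myelin protein gene of Schwann cells, stood at 1879 CPM in the ErbBi set and 904 CPM in the other unpigmented cells (ratio 2.08, 1.65 to 2.60), and at 1317 CPM in the untreated set and 550 CPM in the others (ratio 2.40, 2.203 to 2.61). The twist1a cells were as high, at 1959 CPM in ErbBi and 2007 CPM in untreated, so pmp22a was shared with them. HES1 (ENSDARG00000006514), a Notch-responsive repressor, had ratios of 3.06 (1.47 to 6.22) in ErbBi and 3.04 (2.23 to 4.19) in untreated, of which the second was past the fold. EGFP was lower in the set in both libraries, at 175 CPM against 1510 CPM in ErbBi and 1016 CPM against 2229 CPM in untreated. By summed CPM the mitfa reporter transcript was thus more abundant in unpigmented cells with little foxd3. At 1500 UMIs per cell the limits of the shares with EGFP overlapped in both libraries. In ErbBi they were 10.2% to 48.4% of members and 25.4% to 45.9% of the other unpigmented cells. In untreated they were 29.4% to 46.0% of members and 43.5% to 56.5% of the others.

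**Figure D4:**
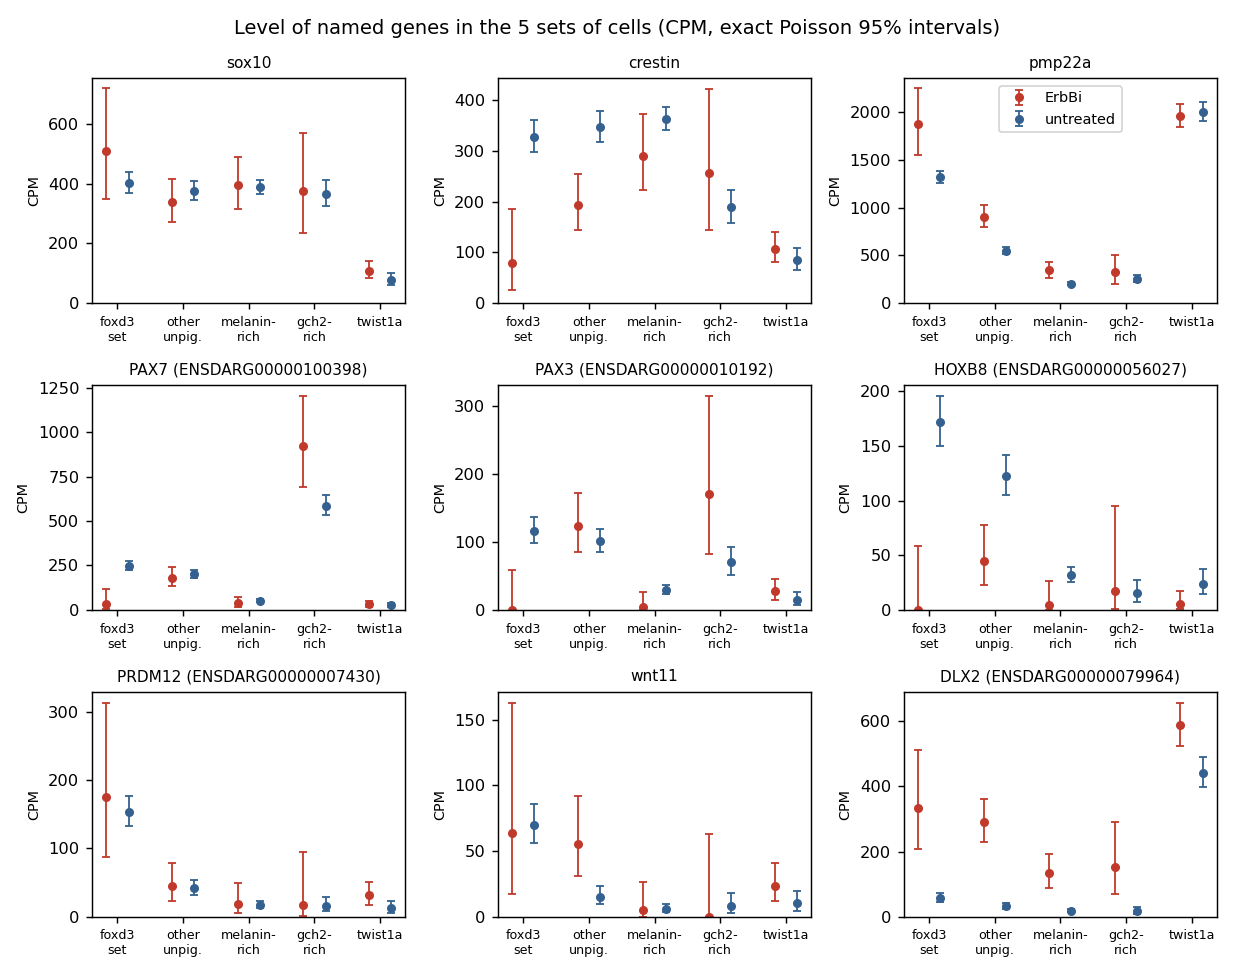
CPM of 9 genes in the foxd3 set, other unpigmented, melanin-rich, gch2-rich and twist1a cells, ErbBi left of untreated, with exact Poisson 95% intervals and linear axes from 0. PRDM12 is highest in the foxd3 set in both libraries (175 CPM in ErbBi, 154 CPM in untreated), while pmp22a is as high in twist1a cells and PAX7 is highest in gch2-rich cells.

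In the deeper untreated library 55 genes were higher in the set without most of their UMIs in 1 cell. Some of them are named here, not by rank. wnt11, a Wnt ligand active in cell movement, stood at 69.9 CPM in the untreated set and 15.4 CPM in the other unpigmented cells, a ratio of 4.54 (2.85 to 7.53). The neurotrophin receptor gene NGFR (ENSDARG00000089223), used to isolate crest stem cells in mammals, was at 32.6 CPM against 7.36 CPM (ratio 4.43, 2.24 to 9.55). The cadherin genes cdh2 and cdh6 had ratios of 2.69 and 2.66, PCDH10 (ENSDARG00000102824), a protocadherin gene, 2.71, and the adhesion genes mcama and MCAM (ENSDARG00000005368) 5.805 and 2.78. At 1500 UMIs cdh6 was found in 25.2% of untreated members and 31.0% of untreated twist1a cells, so cdh6 was shared with them. ZEB2 (ENSDARG00000078416), a factor of epithelial-to-mesenchymal transition, had a ratio of 5.34 and LMO4 (ENSDARG00000054749), a transcriptional cofactor, 4.80. PDGFA (ENSDARG00000098578), a growth factor gene, was at 18.6 CPM against 2.01 CPM. Of 13 cadherin and guidance genes measured, 2 were higher (cdh2 and cdh6) and 0 lower, and of 8 Notch and Wnt targets 1 (notch3, ratio 2.40) was higher. The median log2 ratio of the cadherin and guidance list was -0.15, so its higher members did not speak for the list.

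Cell cycle genes were higher as a list in the untreated set without any single gene past the fold. They summed to 8961 CPM in the set and 6753 CPM in the other unpigmented cells (pooled ratio 1.33, 1.29 to 1.36), and their median log2 ratio was 0.56 beside -0.03 over all genes measured. In the ErbBi library they stood at 8375 CPM in the set and 9017 CPM in the others, a pooled ratio of 0.929 (0.844 to 1.02). Untreated members were deeper than the cells they were compared with, and the part of depth in these list levels was not tested. Anterior hox genes were also higher in the untreated set for 2 of 8 measured, hoxa3a (ratio 2.43) and hoxb3a (2.28). Groups 9 to 13 summed to 193 CPM in the untreated set and 308 CPM in the others.

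Genes of neurons, the neural tube and pigment progenitors were among those lower in the untreated set. Of the 144 lower genes, 54 had most of their UMIs in 1 of the comparison cells and are not described. Of 12 neuron and sensory ganglion genes measured, 5 were lower, among them neurod1 (ratio 0.163), ISL1 (ENSDARG00000004023, 0.126) and ascl1a (0.221), while PRDM12 was higher. Of 10 neural tube genes 4 were lower, including sox3 (22.5 CPM in the set and 93.0 CPM in the others, ratio 0.242), sox19a (0.218) and PAX6 (ENSDARG00000045936, 0.0893). That list's sum was nonetheless higher in the set, at 2159 CPM against 1703 CPM, while its median log2 ratio was -0.80. Of 9 pigment progenitor genes 2 were lower, tfap2b at 17.9 CPM in the set and 44.8 CPM in the others (ratio 0.399, 0.237 to 0.648) and cebpd at 50.5 and 144 CPM (0.351, 0.262 to 0.465). MITF stood at 335 CPM in the untreated set and 557 CPM in the others. The untreated set thus held less RNA of the pigment progenitor list (718 against 1203 CPM) than unpigmented cells with little foxd3.

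Markers of macrophages and erythroid cells were low in the set. Macrophage genes gave 5 UMIs in ErbBi members and 17 in untreated members, and erythroid genes 0 in ErbBi and 46 in untreated, with at most 3 in any member. Muscle genes gave 1 UMI in ErbBi (15.9 CPM) and 640 in untreated (497 CPM), of which 570 came from 1 cell. Of the 68 genes higher in the untreated set, 13, mostly muscle genes, had most of their UMIs in 1 cell. Epidermal genes summed to 701 CPM in ErbBi members and 471 CPM in untreated members, most of it krt8 (557 CPM in ErbBi and 308 CPM in untreated). Of the melanin genes dct stood at 1051 CPM in ErbBi members and 1116 CPM in untreated members, near the 920 CPM of ErbBi and 1006 CPM of untreated twist1a cells. Both sets were chosen under the same 1% limit on melanin genes, so these dct levels describe that choice. Neural tube genes were not low. They summed to 2738 CPM in ErbBi members and 2159 CPM in untreated members, more than in any other set of cells in either library. Against the other unpigmented ErbBi cells the pooled ratio was 1.86 (1.55 to 2.23). Of 5 genes measured there, 2 were higher, FABP7 (ENSDARG00000007697) and MDK (ENSDARG00000036036), and 0 lower. Scrublet called 0 ErbBi members and 1 untreated member as doublets.

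The 139 untreated members were not uniform. At least 2 UMIs of hox groups 5 to 13 were found in 75 of them, whose cells were deeper (median 9753 UMIs against 7642.5 in the 64 others). Apart from the hox genes that divided them, the 75 cells held 166 CPM of PAX3 against 41.0 CPM, 322 CPM of PAX7 against 137 CPM, 424 CPM of crestin against 182 CPM, 422 CPM of MITF against 205 CPM and 1441 CPM of EGFP against 373 CPM. The 64 cells with fewer posterior hox UMIs held more pmp22a (962 CPM in the 75 cells and 1855 CPM in the 64), cdh6 (92.8 and 227 CPM) and DLX2 (36.1 and 89.8 CPM). sox10 stood level, at 405 and 398 CPM. PAX3, PAX7, crestin and EGFP, all lower in ErbBi members, were each higher in the untreated members with posterior hox RNA.

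A division by at least 2 UMIs of PAX7 also divided xanthophore-associated RNA. The 37 members with PAX7 held 431 CPM of aox5, an enzyme gene of xanthophores, against 69.1 CPM in the 102 others. They also held 6327 CPM of gch2 against 2273 CPM, a gene that the rule limits. foxd3, which chose the cells, stood at 355 CPM with PAX7 and 623 CPM without. aox5 was found at 2 or more UMIs in 29 of the 37 (78.4%) and in 9.80% of the others, and 20 of the 30 members with PAX3 also had PAX7. The members without PAX7 held more ednrab (462 CPM with PAX7 and 1389.5 CPM without), pmp22a (563 and 1719 CPM), wnt11 (22.3 and 95.3 CPM) and cdh6 (62.5 and 191 CPM). Cells with PAX7 were deeper, with a median of 10144 UMIs against 7647.5, and the part of depth in either division was not tested.

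**Figure D5:**
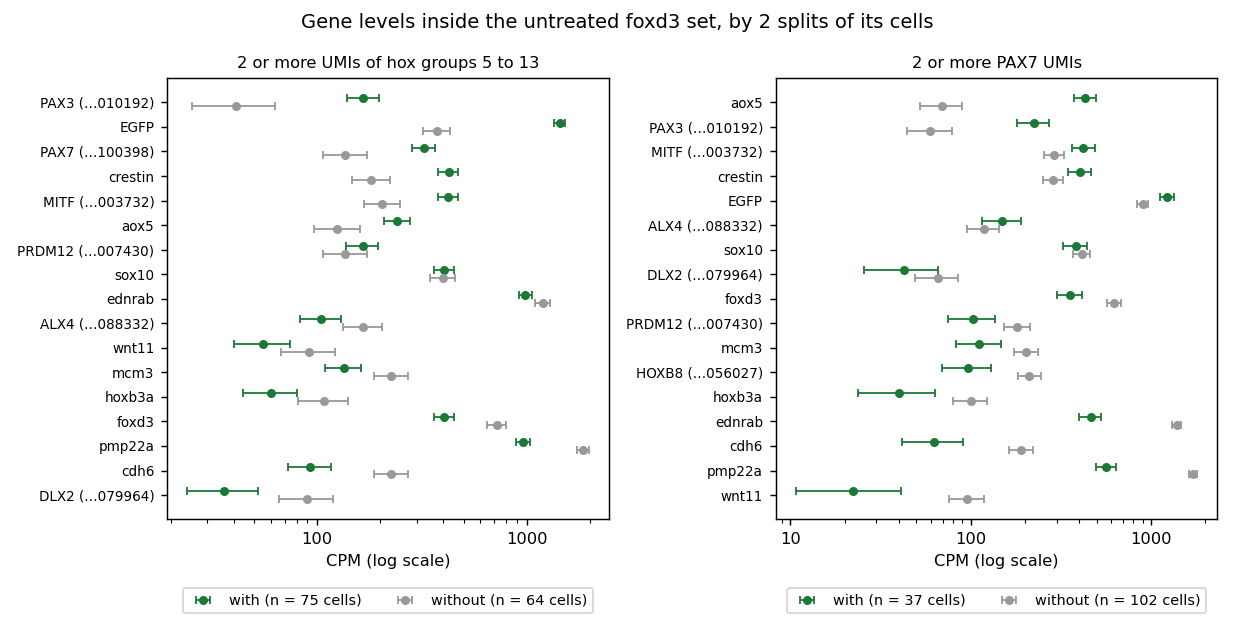
CPM (log axes) inside the untreated foxd3 set, dividing its cells by at least 2 UMIs of hox groups 5 to 13 (left, 75 cells with and 64 without) or of PAX7 (right, 37 with and 102 without), with exact Poisson 95% intervals. PAX3 stands at 166 CPM with posterior hox RNA and 41.0 CPM without, and pmp22a at 962 and 1855 CPM. gch2, which the rule limits, is not drawn.

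PRDM12 and ALX4 each marked a minority of the members. At 2 or more UMIs PRDM12 was found in 40 untreated members and ALX4 in 23, and both were found in 4, which is 17.4% of the ALX4 cells, against 31.0% of the remaining members with PRDM12. Of the 40 PRDM12 cells 28 (70.0%) had posterior hox RNA (groups 5 to 13), against 47.5% of the remaining members. Anterior hox RNA (groups 1 to 4) was found in 72.5% of the PRDM12 cells and 60.6% of the remaining members. Of the 23 ALX4 cells 8 (34.8%) had anterior hox RNA, against 69.8% of the remaining members, and 60.9% had posterior hox RNA, against 52.6%. Both kinds of cells were deeper than the remaining members. Median UMIs were 9470 against 7804 for PRDM12 and 10553 against 7868 for ALX4, and the part of depth was not tested. With 23 and 40 cells from 1 library, these counts describe those cells.

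Across all cells of a library, the genes whose log-normalised levels correlated most with foxd3 were described by Pearson's r, without a test, since cells of a library share depth and preparation. In the untreated library (999 cells) they were rgcc (0.400), a cell cycle regulator gene, pmp22a (0.351), marcksl1a (0.337), PCDH10 (0.337), FABP7 (0.321) and NGFR (0.319). In the ErbBi library (348 cells) they were zc3h7ba (0.269), FABP7 (0.263), SLC1A3 (ENSDARG00000104431, 0.236), a glutamate transporter gene of glia, racgap1 (0.220), CYRIA (ENSDARG00000006672, 0.218) and jun (0.217). FABP7 was the gene named in both libraries. It stood at 1226 CPM in the ErbBi set and 387 CPM in the other unpigmented cells (ratio 3.17, 2.33 to 4.30), and at 1146 CPM in the untreated set and 804 CPM in the others (ratio 1.43, 1.32 to 1.54).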

How the data were processed

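UMI counts per gene and cell were used as the authors deposited them, in a filtered table of 1347 cells. Alignment and counting used Cell Ranger 2.1.1 with build GRCz11 and read quality was checked with FastQC 0.11.7, per the submitters' processing notes. Each cell name ends in 1 or 2 and was assigned to the library whose title ends likewise. This rests on the titles alone. The name table gave symbols for 17967 of 18723 genes (96.0%), many in human style with paralogue letters unsettled. UMIs of near-identical paralogues can be split by the authors' counting, and no strand or sequence was examined.

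From the counts, UMIs were summed over the cells of each set and library and divided by their total (Python 3.11.15, numpy 2.4.6, pandas 2.3.3, scipy 1.17.1, matplotlib 3.10.9). Doublets were called with Scrublet (scanpy 1.11.5) and kept. Intervals are exact Poisson, Clopper-Pearson and conditional binomial at 95%. With 1 library per treatment and cells of a library not being replicates, no p-value was computed. A sum of 0 was set to 3 counts for ratios, which are then bounds. The median log2 ratios include such bounds. Genes named are the 4 markers, members of 21 lists (257 of 279 symbols matched) with at least 10 UMIs in the set, and the 6 genes most correlated with foxd3 in each library. The 12 leading genes past the fold in each direction are added, without those that have most of their UMIs in 1 cell. This ranking was made between treatments and over both libraries against other unpigmented cells. Genes past the fold against other unpigmented cells in 1 library are named as a selection, not by rank. The set was proposed, and the lists and rules were chosen, with earlier results of these data known. Shares of cells with a UMI were to be taken at 2800 UMIs, which left out 15 of 23 ErbBi members and 2 of 139 untreated members. Those at 1500 UMIs were chosen after seeing the data. The scripts were tested on simulated counts. One gene is not reported here.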

Additional observations from a re-analysis of the deposited data

Results flagged for a closer look

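fxyd11, set over other unpigmented cells, was past the fold in opposite directions, at 0.198 in the ErbBi library and 4.06 in the untreated library. In each library most of its UMIs on the higher side came from 1 cell, and the difference between the libraries was not tested.

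Of the ErbBi cells left out by the authors' filter on genes per cell, 3 of 149 (2.01%, Clopper-Pearson limits 0.417% to 5.77%) met the rule of the set, against 0 of 23 untreated cells left out. They take no part in the comparisons above.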

How the results depend on the processing

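No paired analysis was possible because the design gives a single library per treatment, with no replicate to leave out. The shares of cells in the set moved most with the foxd3 limit and the depth. With 1 or more foxd3 UMIs they were 13.8% in ErbBi and 19.1% in untreated, with 3 or more 3.74% in ErbBi and 10.0% in untreated, after thinning to 1500 UMIs (chosen after seeing the data) 3.90% in ErbBi and 3.25% in untreated, and after thinning to 1900 UMIs 3.81% in untreated. The 52 genes higher in ErbBi members became 22 with a minimum of 50 UMIs, 31 with 3 or more foxd3 UMIs, 23 without each gene's top cell and 14 with the rule applied after thinning to 1900 UMIs (chosen after seeing the data). The 15 lower genes became 32 with 1 or more foxd3 UMIs, 24 without the top cell and 3 with the rule after thinning, which left 13 ErbBi and 36 untreated cells. Of the counts against other unpigmented cells in the ErbBi library, 11 higher became 24 with a minimum of 10 UMIs, and 27 lower became 13 with a minimum of 50, 9 at 2800 UMIs per cell and 16 without cells that held 2 or more UMIs of epidermal, muscle, erythroid or macrophage lists (chosen after seeing the data). In the untreated library 68 higher became 41 with a minimum of 50 UMIs and 21 at 2800 UMIs per cell, and 144 lower became 72 with a minimum of 50, 60 at 2800 UMIs per cell and 48 without cells of those lists. Without them tmsb1 reversed to a ratio of 2.13 in the untreated library. The causes were not tested, apart from the fewer genes or cells each alternative leaves. ErbBi over untreated, PAX7 ran between 0.0729 and 0.363 over 10 alternatives and missed the fold in 1 of them, crestin between 0.160 and 0.466 and missed it in 3 of 10, EGFP between 0.144 and 0.817 and missed it in 2 of 10, HOXB8 between 0.0427 and 0.668 and missed it in 1 of 10, PAX3 between 0.129 and 0.788 and missed it in 3 of 9, and hey1 between 10.1 and 32.1 and missed it in 3 of 9. Values of HOXB8 and PAX3 where ErbBi members held 0 UMIs are bounds from the floor of 3 counts, not measured ratios. Of 306 ratios of named genes under alternatives, 249 kept direction and call, 56 kept direction alone and 1 reversed. Of 106 list medians 76 stayed near their value, and of 100 shares of cells with a UMI 60 did.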
